A study of Homo sapiens with 24 samples.

Results

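The HSP70 family outside the endoplasmic reticulum (ER) was followed over all treatment groups by taking the rows of the count matrix whose gene name was *HSPA1A*, *HSPA1B*, *HSPA1L*, *HSPA2*, *HSPA4*, *HSPA4L*, *HSPA6*, *HSPA8*, *HSPA9* or *HSPA14*. All 10 genes were found among the 18915 genes of the matrix, and 9 of them passed the filter on low counts. *HSPA2*, best known from the testis, had at most 4 counts over the 4 libraries of any group and was not tested. HSP70 proteins bind exposed hydrophobic stretches of unfolded or newly made proteins in a cycle driven by ATP, with J-domain proteins (HSP40) delivering the substrate and nucleotide exchange factors releasing it. The cytosolic family holds a constitutive protein, HSC70, and inducible copies whose transcription is driven by heat shock factor 1 (HSF1) when misfolded proteins accumulate. In liver-derived cells, as in others, blocking the proteasome is a well-known way of provoking that response.

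The libraries were 3′ mRNA sequencing of HepG2, an established human hepatoma line, treated for 10 h, with 4 biological replicates in each of 6 groups and no genetic change in any of them. The vehicle group received DMSO, and the single-agent groups received 50 nM ISRIB, 20 µM nelfinavir or 50 nM bortezomib. The co-treated groups received 50 nM bortezomib with 20 µM nelfinavir, or 50 nM bortezomib with 50 nM ISRIB. Bortezomib inhibits the proteasome, nelfinavir is an HIV protease inhibitor that also makes phosphorylated eIF2α build up, through the phosphatase cofactor CReP, and ISRIB keeps eIF2B active when eIF2α is phosphorylated. The co-treatments addressed how shifting the eIF2α–ATF4 branch alters the response to bortezomib. All results come from 1 cell line, 1 dose of each agent and 1 time point.

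Totals ran from 5154533 to 6943164 counts per library, and the share of counts from mitochondrially encoded genes from 18.0% to 40.2%, highest in the groups with bortezomib. All 8 hepatocyte markers were detected, and their summed level was 12970 to 14470 CPM, a gene's counts scaled to a common library size (TMM-scaled CPM), in DMSO, 10140 to 10750 in bortezomib and 6679 to 8598 in bortezomib with nelfinavir. Among fibroblast and stellate cell markers, *COL1A1* and *COL3A1* had no more than 5 counts in any library, and *ACTA2* lay at 26.5 to 38.4 CPM in DMSO, 31.1 to 43.1 with ISRIB, 34.8 to 53.2 with nelfinavir, 75.4 to 105 with bortezomib, 58.5 to 62 with bortezomib and nelfinavir and 47 to 51 with bortezomib and ISRIB. Hepatocyte markers and *ACTA2* thus moved with bortezomib in the same libraries as the changes below, and their part in those changes was not tested. The share of mitochondrially encoded counts moved with bortezomib; leaving those genes out of the scaling factors gave the same counts of members called in all 8 comparisons.

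Upstream sequences are shown for the 4 genes that carry the results below, since these genes respond to bortezomib and differ in what nelfinavir adds. RefSeq windows from 250 bases before to 50 after the transcript start matched 9 of the 10 genes, all but *HSPA14*. The 250 bases before the start follow, 5′ to 3′ on the gene's strand, and capitals mark exact matches to GAANNTTC or TTCNNGAA. These letters are a strict form of the heat shock element, the inverted 5-base units to which heat shock factors bind. Units that depart from these letters were not searched and are not marked. *HSPA1A* is chr6:31783070-31783319 (GRCh37, plus strand), *HSPA1B* chr6:31795265-31795514 (plus), *HSPA6* chr1:161494080-161494329 (plus) and *HSPA8* chr11:122932845-122933094 (minus).
HSPA1A: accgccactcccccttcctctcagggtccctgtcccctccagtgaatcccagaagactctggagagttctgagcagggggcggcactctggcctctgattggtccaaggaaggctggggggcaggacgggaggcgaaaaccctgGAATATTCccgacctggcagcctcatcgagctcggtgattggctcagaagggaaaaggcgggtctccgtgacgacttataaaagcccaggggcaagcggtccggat
HSPA1B: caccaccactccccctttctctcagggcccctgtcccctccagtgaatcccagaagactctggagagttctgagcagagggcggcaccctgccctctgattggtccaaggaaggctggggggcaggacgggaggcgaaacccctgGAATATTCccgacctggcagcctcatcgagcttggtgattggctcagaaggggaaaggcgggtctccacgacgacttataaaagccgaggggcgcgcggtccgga
HSPA6: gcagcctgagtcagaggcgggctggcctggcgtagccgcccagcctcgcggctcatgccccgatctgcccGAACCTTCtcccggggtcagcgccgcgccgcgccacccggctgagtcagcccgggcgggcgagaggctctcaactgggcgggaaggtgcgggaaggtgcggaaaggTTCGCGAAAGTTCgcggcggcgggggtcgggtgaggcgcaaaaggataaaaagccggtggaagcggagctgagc
HSPA8: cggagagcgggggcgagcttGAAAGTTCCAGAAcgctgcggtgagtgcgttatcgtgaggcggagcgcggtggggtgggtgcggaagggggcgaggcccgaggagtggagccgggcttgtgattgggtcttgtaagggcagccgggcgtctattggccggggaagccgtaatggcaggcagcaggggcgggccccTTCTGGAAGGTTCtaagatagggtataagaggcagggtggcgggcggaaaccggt

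The *HSPA1A* and *HSPA1B* sequences were identical at 235 of 249 aligned bases (94.4%). Each held 1 exact match to the searched letters, at bases −106 to −99 and −105 to −98 from the start. The matches do not count the heat shock elements of a gene, since imperfect units were not searched. *HSPA6* and *HSPA8* each held a longer form in which 3 units alternate, at −74 to −62 in *HSPA6* and at both −230 to −218 and −55 to −43 in *HSPA8*. By construction each longer form contains overlapping copies of the shorter one. *HSPA6* held a further short copy at −180 to −173. Both motifs read the same on either strand. The short form was present in 7 of the 11 windows of the 9 matched genes, against 13.5% of the 35116 windows in the table, and the long form in 2 of the 11, against 0.49%. *HSPA2* and *HSPA4* were the matched genes without an exact match to the short form. The *HSPA1L* and *HSPA1A* starts lie back to back, 260 bases apart, and their windows contain the same copy. The C/EBP-ATF composite letters TTGCATCA, searched on both strands, occurred in none of the 11 windows and in 0.866% of all windows. These matches describe letters in a fixed window, and binding was not measured here.

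Bortezomib raised 8 of the 9 tested members. *HSPA6*, counted among these 8, passed the filter on low counts only through its counts in the groups with bortezomib. A gene was called where the quasi-likelihood p of edgeR, adjusted after Benjamini and Hochberg over the 12685 tested genes, was under 0.05. By this rule bortezomib changed 53.4% of all tested genes against DMSO and raised 27.6% of all tested genes. The median log2 fold change of the tested members was 1.23, beside 0.00174 for all tested genes. Bortezomib, nelfinavir and ISRIB alone were each compared with the same DMSO libraries. *HSPA14* was the tested member that did not pass. In the plot of the levels in each library, the inducible genes stand far apart from the rest of the family in their response.

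**Figure D1:**
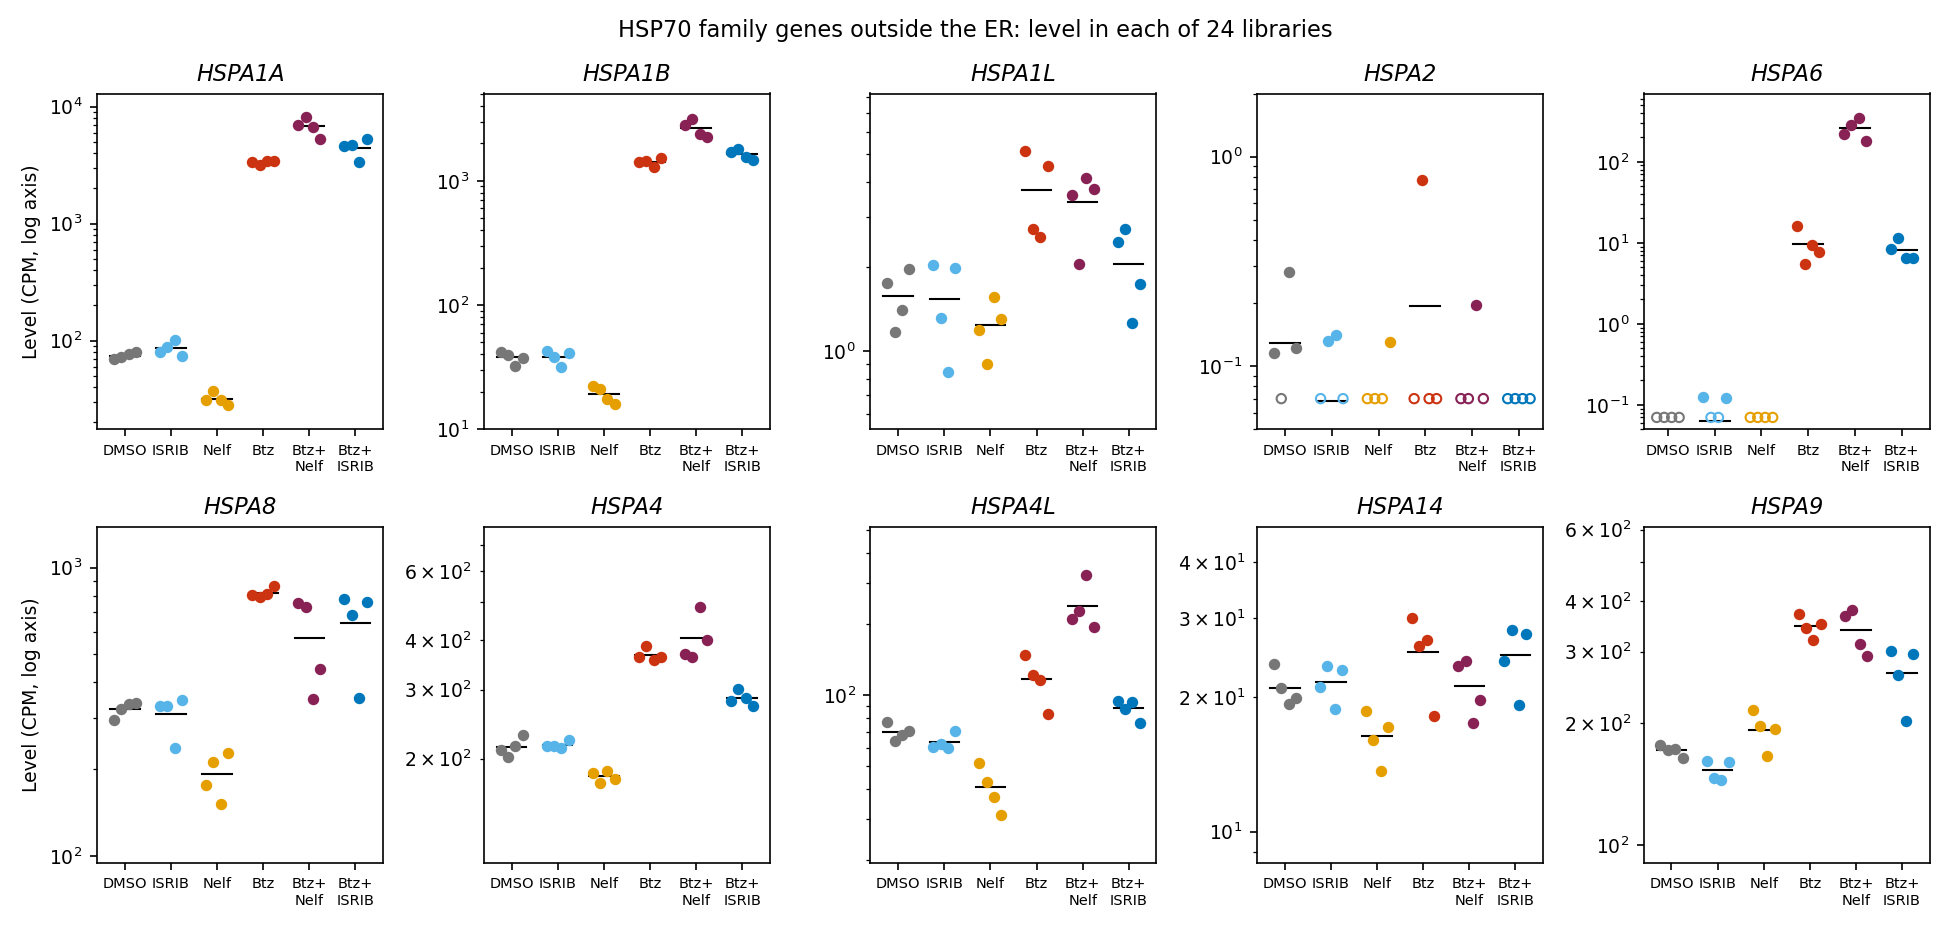
Level of each of the 10 genes in every library, in TMM-scaled CPM on log axes that differ between panels, by treatment; points are libraries, black lines are group means (n = 4), and open circles mark libraries with 0 counts, placed at the bottom. *HSPA1A* rises from a mean of 74.2 CPM in DMSO to 3346 with bortezomib and 6761 with bortezomib and nelfinavir, while *HSPA6* is at 0 in all DMSO and nelfinavir libraries.

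*HSPA1A* and *HSPA1B* encode the same major stress-inducible HSP70 of the cytosol from neighbouring genes (ENSG00000204389 and ENSG00000204388, chromosome 6 of GRCh37). In DMSO, *HSPA1A* stood at 69.03, 72.5, 76.0 and 79.4 CPM, and with nelfinavir at 31.2, 37.3, 31.1 and 27.9 CPM. With bortezomib it stood at 3337, 3188, 3445 and 3413 CPM, and with bortezomib and nelfinavir at 6924, 8086, 6741 and 5292 CPM. These 4 groups did not overlap in any pair. Bortezomib with ISRIB gave 4584, 4665, 3345 and 5235 CPM, where the third library lay within the bortezomib range and the other 3 above it. ISRIB alone gave 73.3 to 101 CPM, overlapping DMSO.

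The neighbouring *HSPA1B* followed the same order of groups at its own level. It measured 42.2, 39.6, 32.5 and 37.8 CPM in DMSO, and 22.1, 21.04, 17.6 and 15.97 CPM with nelfinavir. It measured 1412, 1447, 1302 and 1534 CPM with bortezomib, and 2801, 3155, 2387 and 2261 CPM when nelfinavir was added. None of these 4 groups overlapped another. Bortezomib with ISRIB (1482 to 1811 CPM) overlapped bortezomib alone.

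Both genes had their place at the head of the bortezomib comparison, with ranks 2 and 1 by p among the tested genes and rises of 45.1-fold and 37.4-fold. Nelfinavir alone lowered both, *HSPA1A* by 1.22 (SE 0.128, adjusted p = 5.549e-09) and *HSPA1B* by 0.98 (SE 0.122, adjusted p = 1.751e-07) on the log2 scale. Added to bortezomib, nelfinavir instead raised them, *HSPA1A* 2.02-fold (log2 1.015, SE 0.114, adjusted p = 3.093e-08) and *HSPA1B* 1.86-fold (log2 0.90, SE 0.102, adjusted p = 3.714e-08). With ISRIB added to bortezomib, *HSPA1A* was raised 1.33-fold (log2 0.41, SE 0.113, adjusted p = 0.01302), a call that was lost without the replicate 4 library of that co-treatment (log2 0.32, adjusted p = 0.06757). *HSPA1B* was at 0.20 in the same comparison (95% interval −0.005 to 0.41, adjusted p = 0.2019).

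The division of reads between the near-identical genes was examined because a shared read could be given to either. Over the last 500 bases of their transcripts, where 3′ libraries place most reads, 130 bases aligned at 97.7% identity, and none of 425 windows of 80 bases, the read length, was shared exactly. *HSPA1A* took 66.1% ± 3.5 of the counts of the pair in DMSO and 70.2% ± 1.74 with bortezomib (SD, n = 4). It took 71.8% ± 1.59 with bortezomib and nelfinavir and 72.8% ± 4 with bortezomib and ISRIB. The difference between bortezomib and DMSO was 4 percentage points, with p = 0.114 in a two-sided exact permutation test (adjusted 0.343 over 3 comparisons), where the smallest p that 4 against 4 libraries allow is 0.0286. The co-treatments differed from bortezomib by 1.61 and 2.64 points (exact permutation p = 0.257 and 0.343, both 0.343 after adjustment). Reads from further upstream could still be divided arbitrarily, so the levels of the 2 genes are less certain than their sum.

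*HSPA6* (ENSG00000173110, chromosome 1, 161494330 to 161496684), the strictly inducible HSP70B′, was at or near 0 in every library without bortezomib. No read was counted in the 4 DMSO or the 4 nelfinavir libraries, and 2 reads in all ISRIB libraries together. With bortezomib it measured 16.2, 5.43, 9.29 and 7.78 CPM, from 184 counts in all. With bortezomib and nelfinavir it measured 221, 287, 348 and 179 CPM, from 5034 counts. With bortezomib and ISRIB it measured 8.46, 11.5, 6.53 and 6.42 CPM, from 150 counts. The bortezomib and bortezomib with ISRIB groups overlapped each other, and every library given bortezomib with nelfinavir lay above all others.

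Against DMSO, where a group total of 0 was set at a floor of 3 counts over the group, bortezomib gave an at least 101-fold higher *HSPA6* level. Against nelfinavir alone, bortezomib with nelfinavir gave an at least 2706-fold higher level on the same floor. Nelfinavir added to bortezomib raised *HSPA6* 26.8-fold (log2 4.74, SE 0.238, adjusted p = 3.134e-14), rank 5 by p among the tested genes. Across leaving out each library of these groups in turn, the log2 fold change stayed between 4.58 and 5.15. The ISRIB co-treatment differed from bortezomib by log2 −0.22 (95% interval −0.80 to 0.37, adjusted p = 0.6821). The last 500 bases of *HSPA6* align with *HSPA7*, a near copy, over 196 bases at 98.5% identity, and 57 of 421 windows of 80 bases were identical, so part of these reads may come from *HSPA7*.

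*HSPA1L*, a testis-enriched HSP70 transcribed away from *HSPA1A*, stayed near the detection limit. It measured 1.17 to 1.96 CPM in DMSO and 5.13, 2.71, 2.54 and 4.54 CPM with bortezomib, which did not overlap. The rise was 2.35-fold (log2 1.23, SE 0.384, adjusted p = 0.007374), resting on 50 counts in DMSO and 71 with bortezomib, and it was not called when library totals alone set the scale (log2 0.73, adjusted p = 0.1006). Nelfinavir or ISRIB added to bortezomib gave log2 −0.13 and −0.86 (adjusted p = 0.8307 and 0.1627), both within overlapping groups.

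**Figure D2:**
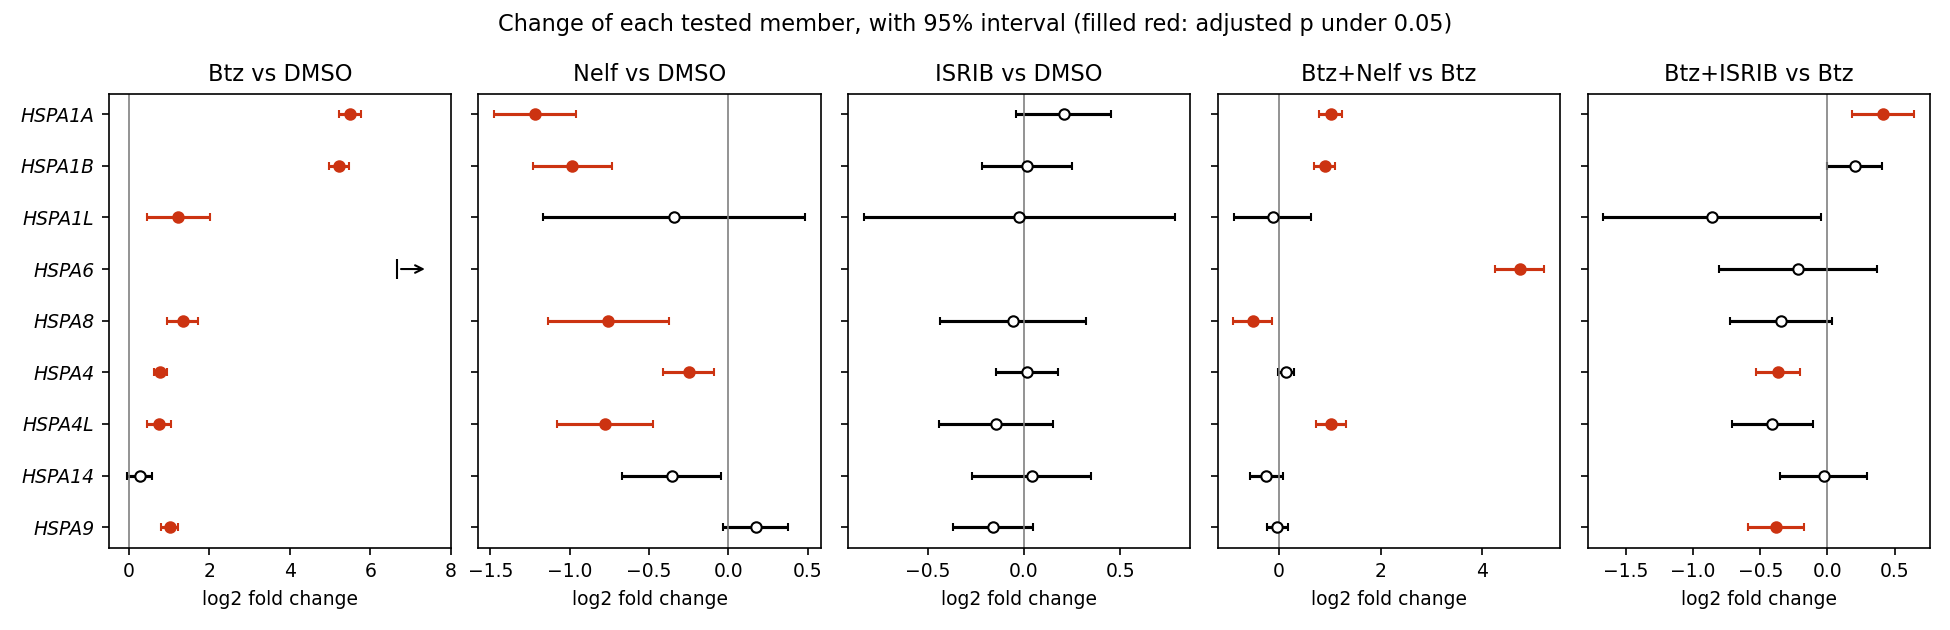
Log2 fold change (edgeR) of each tested member in 5 comparisons, with 95% intervals on horizontal axes that differ between panels; filled red points had an adjusted p under 0.05 and open points did not. The *HSPA6* mark with an arrow is the lower bound of 6.66 for bortezomib against DMSO, and *HSPA6* is left out where both groups were at or near 0.

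*HSPA8* encodes HSC70, the constitutive cytosolic HSP70 that also uncoats clathrin vesicles. It measured 296, 324, 336 and 341 CPM in DMSO and 804, 793, 809 and 865 CPM with bortezomib. Nelfinavir alone gave 177, 212 (replicate 2), 152 and 228 CPM, entirely below DMSO. Bortezomib thus stood above DMSO and nelfinavir below it in every library. Bortezomib with nelfinavir gave 752, 732, 350 and 446 CPM, and bortezomib with ISRIB 776, 684, 353 and 762 CPM, each below the bortezomib range and widely spread.

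Bortezomib raised *HSPA8* 2.52-fold (log2 1.33, SE 0.189, adjusted p = 3.624e-07), a rise that ran from log2 0.84 to 1.35 over the other scalings, filters and fits. Nelfinavir alone lowered *HSPA8* by 0.76 on the log2 scale (SE 0.189, adjusted p = 0.003483). Added to bortezomib, nelfinavir lowered it by 0.52 (SE 0.186, adjusted p = 0.03346), the opposite direction to *HSPA1A*, *HSPA1B* and *HSPA6* in the same libraries. That call was lost in DESeq2 (log2 −0.52, adjusted p = 0.07191) and in 6 of 8 fits leaving out 1 library, namely each bortezomib library (adjusted p 0.05798 to 0.07967), replicate 3 of the co-treatment (log2 −0.33, adjusted p = 0.176) or its replicate 4 (log2 −0.40, adjusted p = 0.1231). The replicate 3 library was the lowest for *HSPA8* in the ISRIB, nelfinavir and both co-treated groups. In a fit without the replicate 3 libraries of ISRIB and both co-treatments, chosen after seeing the data, the decrease was 0.33 (log2 −0.33, SE 0.116, adjusted p = 0.0349). With ISRIB added to bortezomib the difference was log2 −0.35 (95% interval −0.72 to 0.03, adjusted p = 0.2351), which was called without the filter on low counts (adjusted p = 0.005239).

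The HSP110-like genes *HSPA4* and *HSPA4L* encode large relatives that act as nucleotide exchange factors for HSP70. *HSPA4L* measured 77.2, 64.2, 67.7 and 70.6 CPM in DMSO, and 51.6, 43.1, 37.0 and 31.3 CPM with nelfinavir. With bortezomib it measured 148, 122, 115 (replicate 3) and 83.4 CPM, and with bortezomib and nelfinavir 209, 227, 322 and 195 CPM. The 4 groups did not overlap. Bortezomib with ISRIB gave 94.6, 87.5, 93.5 and 76.3 CPM, overlapping bortezomib alone.

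Nelfinavir alone lowered *HSPA4L* by 0.78 on the log2 scale (SE 0.149, adjusted p = 0.0002099), and bortezomib raised it 1.67-fold (log2 0.74, SE 0.146, adjusted p = 6.448e-05). With library totals alone as the scale the bortezomib rise was not called (log2 0.25, adjusted p = 0.1565). Nelfinavir added to bortezomib raised it 2.04-fold (log2 1.03, SE 0.144, adjusted p = 1.662e-06). On top of bortezomib, ISRIB gave log2 −0.41 (95% interval −0.71 to −0.11, adjusted p = 0.06413). This difference was called without the filter on low counts (adjusted p = 0.005557), without bortezomib replicate 4 (log2 −0.54, adjusted p = 0.01535) and with the replicate number as a block (log2 −0.40, adjusted p = 0.04446). It was also called with library totals alone (log2 −0.47, adjusted p = 0.03526). So it was without the replicate 3 libraries of ISRIB and both co-treatments, chosen after seeing the data (log2 −0.45, adjusted p = 0.02289).

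*HSPA4* changed by smaller steps with little spread. It measured 211, 202, 215 and 229 CPM in DMSO, 184, 174, 186 and 177 CPM with nelfinavir, and 362, 388, 356 and 364 CPM with bortezomib. Bortezomib with ISRIB gave 281, 301, 286 (replicate 3) and 272 CPM (replicate 4), between DMSO and bortezomib with no overlap. Bortezomib with nelfinavir gave 369, 364, 486 and 400 CPM, overlapping bortezomib (log2 0.14, adjusted p = 0.1911; 0.23 and 0.24 with adjusted p = 0.04744 and 0.04004 without its replicate 1 or 2). Bortezomib raised *HSPA4* 1.72-fold (log2 0.78, SE 0.0797, adjusted p = 5.29e-10), a rise that ran from log2 0.28 to 0.79 over the other scalings, filters and fits. The addition of ISRIB to bortezomib lowered it by 0.37 on the log2 scale (SE 0.0797, adjusted p = 0.00176). Nelfinavir alone lowered it by 0.25 (SE 0.0796, adjusted p = 0.02337), and this was lost in 4 of 8 fits leaving out 1 library (DMSO replicate 3 or 4, nelfinavir replicate 2 or 4, adjusted p 0.05313 to 0.09273) and without the filter on low counts (adjusted p = 0.05708).

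*HSPA9* encodes mortalin, the HSP70 of the mitochondrial matrix that pulls precursors through the inner membrane. It measured 177, 171, 173 and 164 CPM in DMSO and 373, 343, 321 and 352 CPM with bortezomib, a rise of 2.02-fold (log2 1.018, SE 0.102, adjusted p = 3.549e-10) with no overlap. Over the other scalings, filters and fits, *HSPA9* rose by log2 0.52 to 1.03 with bortezomib. With ISRIB added to bortezomib it fell by 0.38 on the log2 scale (SE 0.102, adjusted p = 0.01018), at 301, 263, 202 and 296 CPM, all below the bortezomib libraries. ISRIB alone gave 145 to 161 CPM, below every DMSO library, and was not called (log2 −0.16, 95% interval −0.37 to 0.05). The interaction of ISRIB with bortezomib was log2 −0.22 for *HSPA9* and was not called (adjusted p = 0.4432). Nelfinavir passed the test in neither setting, with log2 0.17 alone (95% interval −0.04 to 0.38, adjusted p = 0.2738) and −0.04 on top of bortezomib (95% interval −0.24 to 0.17, adjusted p = 0.8315).

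*HSPA14* encodes a ribosome-associated HSP70 that works with the J-domain protein DNAJC2 on emerging chains. It measured 19.3 to 23.7 CPM in DMSO and 18.1 to 29.9 CPM with bortezomib, with overlap (log2 0.27, 95% interval −0.05 to 0.58, adjusted p = 0.1483, and −0.23 with adjusted p = 0.2067 under library totals alone). With nelfinavir alone it lay at 13.6 to 18.6 CPM, below every DMSO library (log2 −0.36, SE 0.154, adjusted p = 0.1075, unadjusted p = 0.02648), and it was called when the fit held only those groups (adjusted p = 0.02659). The co-treatments overlapped bortezomib, at log2 −0.26 with nelfinavir and −0.03 with ISRIB (adjusted p = 0.2367 and 0.9384).

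Nelfinavir alone thus lowered 5 of the 9 tested members (*HSPA1A*, *HSPA1B*, *HSPA8*, *HSPA4* and *HSPA4L*) and raised none. Across all tested genes it changed 19.2%, and lowered 8.84%. The median log2 fold change of the tested members was −0.36, beside 0.00703 for all genes. *HSPA6*, with 0 counts in both groups, is among the 9, enters this median as 0 and could not be called lower. ISRIB alone changed none of the 9 members, also at an unadjusted p under 0.05, and the share of all genes called by edgeR was 0% (703 genes at an unadjusted p under 0.05). DESeq2 called 19 genes for ISRIB, edgeR 39 without the filter and 80 with only those groups in the fit, and no member was among them in any of these fits.

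Whether nelfinavir acted differently in the presence of bortezomib was tested by the interaction of the 2 drugs, which used the DMSO, nelfinavir, bortezomib and co-treated libraries. The interaction was called and positive for 4 of the 9 tested members, where 19.7% of all genes were called and 9.74% were positive. On the log2 scale it was 2.23 for *HSPA1A* (SE 0.171, adjusted p = 1.084e-11), 1.88 for *HSPA1B* (SE 0.159, adjusted p = 9.309e-11), 1.80 for *HSPA4L* (SE 0.208, adjusted p = 6.608e-08) and 0.39 for *HSPA4* (SE 0.112, adjusted p = 0.0126). For *HSPA1A*, *HSPA1B* and *HSPA4L* the sign turned, from a decrease with nelfinavir alone to an increase on top of bortezomib, and the groups did not overlap in either setting. For *HSPA8* the interaction was 0.23 (95% interval −0.30 to 0.77, adjusted p = 0.5816). For *HSPA6*, counted among the 9, no interaction is given. With DMSO and nelfinavir both at 0, edgeR could not estimate it and so could not call it.

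**Figure D3:**
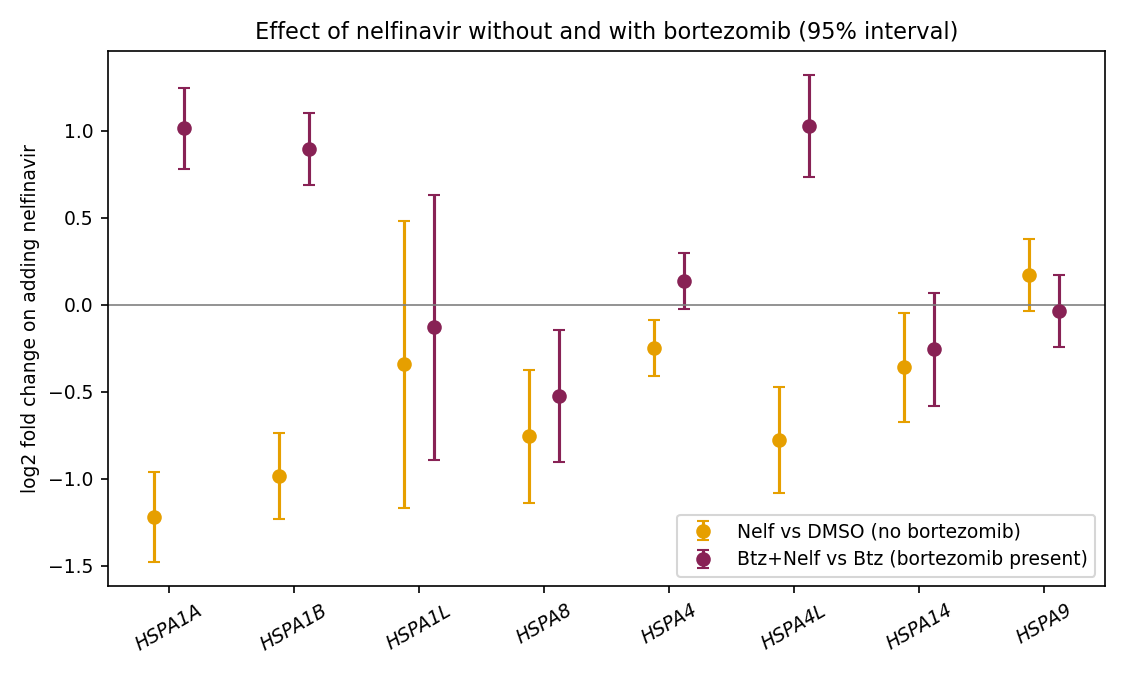
Log2 fold change on adding nelfinavir, without bortezomib (orange, against DMSO) and with bortezomib (purple, against bortezomib alone), for the tested members other than *HSPA6*; points are edgeR estimates and bars 95% intervals. *HSPA1A*, *HSPA1B* and *HSPA4L* are below 0 without bortezomib and above 0 with it, whereas *HSPA8* is below 0 in both.

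Added to bortezomib, nelfinavir changed 5 of the 9 members, 4 higher (*HSPA1A*, *HSPA1B*, *HSPA6*, *HSPA4L*) and *HSPA8* lower, where it changed 28.9% of all genes. The members' median log2 fold change was 0.14, beside −0.02 for all genes. ISRIB added to bortezomib changed 3 of the 9, *HSPA1A* higher and *HSPA4* and *HSPA9* lower, where 12.2% of all genes were called. The median was −0.35, beside 0.00651. Both co-treatments were compared with the same bortezomib libraries, so their values are set side by side and not related to each other.

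The interaction of ISRIB with bortezomib was called for *HSPA4* alone (log2 −0.38, SE 0.112, adjusted p = 0.04123), where 4.82% of all genes were called. The call was lost in 14 of 16 fits that left out 1 library, all but those without DMSO replicate 4 or ISRIB replicate 3. It was also lost without the filter on low counts (adjusted p = 0.09872). Over the 16 fits the value stayed between −0.42 and −0.35. For the other 8 tested members the difference between the ISRIB effects was not called, with *HSPA6* resting on 0 counts in DMSO and 2 with ISRIB alone.

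Compared directly, bortezomib with nelfinavir stood above bortezomib with ISRIB for 6 of the 9 members, where 24.4% of all genes differed and 13.2% were higher. The difference was largest for *HSPA6*, 31.2-fold (log2 4.96, SE 0.244, adjusted p = 2.312e-14), followed by *HSPA4L* at 2.71-fold (log2 1.44, SE 0.147, adjusted p = 5.1e-09). *HSPA1B* differed 1.62-fold, *HSPA1A* 1.52-fold and *HSPA4* 1.42-fold (adjusted p = 3.795e-06, 0.000156 and 1.249e-05). *HSPA9* differed 1.27-fold (adjusted p = 0.01059) with overlapping groups, and was not called when only those 2 groups were in the fit (adjusted p = 0.1082). *HSPA8* was at log2 −0.18 (95% interval −0.56 to 0.20, adjusted p = 0.5324).

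The summed level of the 10 genes followed from these changes. It was 914.7 ± 22.5 CPM in DMSO, 892 ± 58.7 with ISRIB and 674.5 ± 46.9 with nelfinavir (SD, n = 4). It was 6458 ± 141 CPM with bortezomib, 11250 ± 1730 with bortezomib and nelfinavir, and 7412 ± 1050 with bortezomib and ISRIB. The bortezomib libraries (6316 to 6642 CPM) lay below all 4 with nelfinavir added (9091 to 13260 CPM), while those with ISRIB added (5865 to 8160 CPM) overlapped them. As a share of all counts, which needs no scaling factor, the family rose from 0.106–0.114% of a library in DMSO to 0.541–0.564% with bortezomib and 0.786–1.08% with bortezomib and nelfinavir.

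The make-up of the family's counts shifted towards the inducible genes. *HSPA1A*, *HSPA1B* and *HSPA6* together gave 11.8 to 12.5% of the family's level in DMSO, 12.1 to 16.5% with ISRIB and 6.34 to 8.33% with nelfinavir. They gave 73.5 to 74.6% with bortezomib, 81.0 to 83.7% with bortezomib and ISRIB, and 85.1 to 86.95% with bortezomib and nelfinavir, with no overlap among these 3 groups. In 3′ libraries a transcript yields reads from its end only, so the counts were not divided by transcript length, and these shares are shares of counts.

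**Figure D4:**
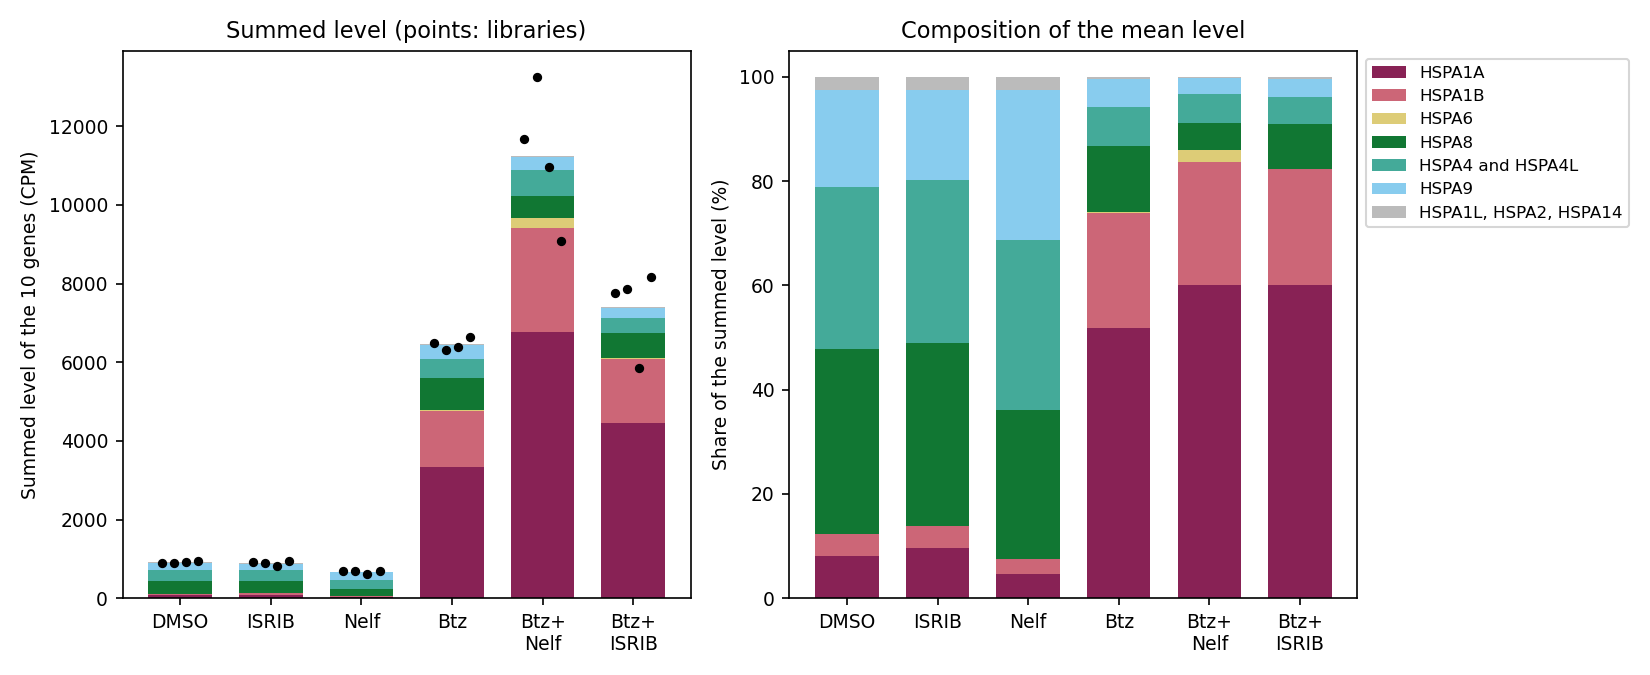
Left, summed TMM-scaled level of the 10 genes by treatment in CPM (bars, mean of 4 libraries, stacked by gene; points, single libraries); right, the same means as a percentage of the summed level. The sum rises from 914.7 CPM in DMSO to 6458 with bortezomib and 11250 with bortezomib and nelfinavir, and *HSPA1A* and *HSPA1B* take most of it in the 3 groups with bortezomib.

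Partners of cytosolic HSP70 were counted by list. Of all tested genes, bortezomib raised 27.6% and nelfinavir alone changed 19.2%. Added to bortezomib, nelfinavir changed 28.9% of all tested genes and ISRIB 12.2%. The counts of every list below stand beside these shares. Of 8 J-domain partners, 7 were tested, and bortezomib raised all 7, with *DNAJB1*, the main inducible HSP40, at log2 3.18 (adjusted p = 3.716e-24), *DNAJB6* at 1.59 (adjusted p = 6.586e-16), *DNAJB4* at 3.05 (adjusted p = 3.209e-15) and *DNAJA1* at 1.06 (adjusted p = 1.871e-13). Nelfinavir alone raised 2 and lowered 2 of the 7 (median −0.14), among them *DNAJA1* (−0.51) and *DNAJB1* (−0.33) as the lower ones. On top of bortezomib nelfinavir raised 4 and lowered none, with *DNAJB1* 1.42 higher, from 1371 ± 75.8 to 3667 ± 527 CPM (adjusted p = 3.164e-14). ISRIB added to bortezomib lowered 2, *DNAJA1* (−0.45) and *DNAJB6* (−0.30), and raised none.

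Of 11 exchange factors and cochaperones, bortezomib raised 7 and lowered 2, where it raised 27.6% and changed 53.4% of all tested genes. *HSPH1*, the inducible HSP110, rose by log2 2.58 (adjusted p = 1.668e-18), *BAG3*, which links HSP70 to autophagy, by 3.37 (adjusted p = 1.2e-14), *DNAJC2*, the ribosome-bound partner of *HSPA14*, by 1.15 (adjusted p = 7.963e-14), and *STIP1*, which joins HSP70 to HSP90, by 1.03 (adjusted p = 3.528e-09). *BAG4* fell by 0.92 (adjusted p = 1.377e-06) and *STUB1*, the ubiquitin ligase CHIP, by 0.63 (adjusted p = 0.000142). *HSPH1* ran in the same direction as *HSPA4L* and *HSPA1A* with nelfinavir, from 322.2 ± 30 CPM in DMSO to 184.5 ± 37.5 with nelfinavir, and from 1921 ± 195 with bortezomib to 4470 ± 632 with both. Its interaction was 2.02 (adjusted p = 3.695e-11), and 5 of the 11 genes had a positive interaction of nelfinavir and bortezomib and none a negative one. Of all tested genes, 9.74% had a positive one. Nelfinavir alone lowered 3 of the 11 and raised none, where it lowered 8.84% of all tested genes. ISRIB added to bortezomib lowered 3 of the 11 and raised none, where it changed 12.2% of all tested genes.

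Of 8 listed partners of the mitochondrial HSP70, 6 were tested, and 4 were called with bortezomib, 2 in each direction, a share near the 53.4% of all tested genes. Bortezomib raised *TIMM44* (log2 0.70, adjusted p = 1.123e-05) and *GRPEL2* (log2 0.63, adjusted p = 0.001493), the import motor anchor and an exchange factor, and lowered *DNAJC19* (log2 −1.33, adjusted p = 1.605e-06) and *DNAJA3* (log2 −0.36, adjusted p = 0.02717), both J-domain proteins. Nelfinavir added to bortezomib raised 3 of the 6, and none of the 6 was called with ISRIB added to bortezomib. Across all tested genes these additions changed 28.9% and 12.2%.

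The ER genes of the HSP70 family, and with them *SIL1*, which is not an HSP70, were counted for comparison. *HSPA5*, the ER HSP70 known as BiP, measured 2134 ± 161 CPM with bortezomib, 13420 ± 2430 with bortezomib and nelfinavir, and 10020 ± 1040 with bortezomib and ISRIB (SD, n = 4). It was higher with either added agent (log2 2.65, adjusted p = 3.145e-19, and 2.23, adjusted p = 4.129e-17), as was *HYOU1*, the ER HSP110-like protein (log2 1.64 and 1.15, adjusted p = 3.265e-13 and 2.705e-09). Outside the ER, *HSPA1A* was the member called higher in each of these comparisons, which share the bortezomib libraries. Its call with ISRIB was lost without replicate 4 of that co-treatment (edgeR adjusted p = 0.06757). *HSPA5* did not pass the test with nelfinavir alone (log2 0.12, adjusted p = 0.477). Nelfinavir alone raised 2 of the 4 ER genes and lowered none, where it changed 19.2% of all tested genes. The 2 were *HSPA13* (log2 1.19, adjusted p = 1.058e-07) and *HYOU1* (log2 0.46, adjusted p = 0.002337). Of the 4 ER genes, bortezomib raised 3, all but *SIL1* (log2 0.07, adjusted p = 0.7287), where it raised 27.6% of all tested genes. Added to bortezomib, nelfinavir raised 3 of the 4 and ISRIB 2, where these additions changed 28.9% and 12.2% of all tested genes. *HSPA13* was called with nelfinavir added (log2 0.75, adjusted p = 9.103e-05) and not with ISRIB added (log2 0.37, adjusted p = 0.07819). *SIL1* was called with neither (log2 −0.22 and 0.04, adjusted p = 0.3025 and 0.8957).

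Among the heat shock factors, bortezomib raised *HSF2* (log2 1.12, adjusted p = 1.159e-08) and *HSF1* (log2 0.69, adjusted p = 6.443e-05), and *HSF4* did not pass (log2 1.81, adjusted p = 0.08848). Nelfinavir changed none of the 3, alone or with bortezomib. ISRIB added to bortezomib lowered 1 of the 3 and raised none, where it changed 12.2% of all tested genes. Of 8 other heat shock genes, bortezomib raised all 8, led by the HSP90 gene *HSP90AA1* (log2 1.89, adjusted p = 4.823e-19), the small heat shock gene *HSPB1* (log2 2.60, adjusted p = 7.891e-17), *CHORDC1* (log2 1.76, adjusted p = 1.54e-15) and *AHSA1* (log2 1.58, adjusted p = 4.287e-14), the last 2 encoding HSP90 cochaperones. Nelfinavir alone lowered 5 of these 8 and raised none, where it lowered 8.84% of all tested genes. On top of bortezomib nelfinavir raised all 8, and the interaction was positive and called for all 8. Of all tested genes, bortezomib raised 27.6%, nelfinavir changed 28.9% on top of it, and 9.74% had a positive interaction. ISRIB added to bortezomib raised 1, the mitochondrial cochaperonin *HSPE1* (log2 0.52), and lowered 1, *HSP90AA1* (log2 −0.25).

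Genes outside the family with the most similar pattern were sought by the root-mean-square difference over the 5 log2 fold changes of the treated groups against DMSO, which share their DMSO libraries. For *HSPA4* these were *RBM25*, *ASF1A* and *PRKD2* (0.051, 0.0673 and 0.0693), and for *HSPA9* they were *RAB10*, *TIAL1* and *PPIE* (0.0784, 0.0805 and 0.0864). For *HSPA8* they were *POC5*, *ITPRIPL1* and RP11-112L6.4 (0.0903, 0.169 and 0.214), all of low counts, with 101, 47 and 28 over the DMSO libraries. *HSPA1A* and *HSPA1B* differed from each other by 0.33 on this measure. Their nearest genes outside the family were *TTLL7*, RP11-818F20.5 and TMEM200C, at 0.545, 0.585 and 0.836 for *HSPA1A* and 0.51, 0.566 and 0.755 for *HSPA1B*, and all had at most 2 counts over the libraries of each group without bortezomib.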

How the data were processed

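The deposited table held raw read counts per gene for 24 libraries of HepG2 cells. The authors trimmed reads with cutadapt 2.8, aligned them to hg19 with STAR and counted them on Ensembl GRCh37 genes of the protein-coding, lincRNA and antisense biotypes, leaving these counts unnormalised; the counting program, the strand setting and the handling of reads that map to several genes are not given in the sources consulted. Columns were assigned to samples by title, and replicates were taken as the labels state them, as separate biological replicates. No 2 replicates agreed within sampling noise (chi-square per degree of freedom at least 2.144).

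Genes were filtered with filterByExpr (minimum count 5, minimum total 25), scaled by TMM and tested with edgeR 4.0.16 (R 4.3.3) by quasi-likelihood in 1 fit of all 24 libraries, with Benjamini-Hochberg adjustment over 12685 genes. The fit was also run on simulated counts in which few genes changed, equally in both directions. That run does not test the fit under changes as wide as those with bortezomib. CPM used TMM-scaled totals. Shares were compared by exact permutation tests. Alternatives were other scalings (library totals, RLE, TMM without mitochondrially encoded genes), other filters, DESeq2 1.42.0, only the groups compared, a replicate block, summed *HSPA1A* and *HSPA1B* counts, and leaving out each library in turn. Fold changes against 0 counts used a floor of 3 counts over a group, which covers counting error only. Upstream sequences came from RefSeq and were placed on GRCh37 by an exact match; transcript ends were compared with BLAST 2.17.0.

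All 10 members were named. From each partner list at most 4 genes with the smallest p for bortezomib against DMSO were named, plus those called in the other direction with bortezomib. Some of the genes behind counts of 5 or fewer were also named, and others were counted without being named. *HSPA5* and *HYOU1* and the further values given for *DNAJB1* and *HSPH1* were chosen after their values were seen. The members and lists were chosen with earlier results of these data known.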

Additional observations from a re-analysis of the deposited data

Results flagged for a closer look

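Of 59 sets of 4 libraries examined with Dixon's test at its 95% critical value, 4 had a library far from the other 3, and chance alone would mark about 1 in 20. *HSPA8* was at 236.3 CPM in ISRIB replicate 3, where the others were at 330.9 to 346.7. The summed level of the family was 604.4 CPM in nelfinavir replicate 3, with the others at 692.5 to 701, and 5865 CPM in replicate 3 of bortezomib with ISRIB, with the others at 7769 to 8160. *HSPA2* was at 0.776 CPM in bortezomib replicate 2 and at 0 in the other 3, a difference of 4 counts.

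The effect of nelfinavir differed between cells without and with bortezomib, by a tested interaction, for *HSPA1A* (log2 2.23), *HSPA1B* (1.88), *HSPA4L* (1.80) and *HSPA4* (0.39). The effect of ISRIB differed in the same way for *HSPA4* (log2 −0.38), a call that most fits leaving out 1 library did not keep.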

How the results depend on the processing

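Of 1428 refitted log2 fold changes of members, 1355 kept their direction and side of the threshold, 31 lost the call, 10 gained it and 32, spread over 12 values, changed sign, none of them called before or after. Signs changed with library totals alone for *HSPA14* with bortezomib (−0.23) and for *HSPA1B* (−0.0043) and *HSPA4* (−0.0038) with ISRIB, and without the filter for *HSPA9* with nelfinavir added to bortezomib (0.0065). Without the replicate 3 libraries of ISRIB and both co-treatments, chosen after seeing the data, they changed for *HSPA1L* (0.17) and *HSPA8* (0.060) with ISRIB, *HSPA14* with ISRIB added to bortezomib (0.070) and *HSPA9* with nelfinavir added (0.022). Leaving out 1 library, the values spanned 0 for ISRIB alone in *HSPA1B* (−0.050 to 0.093), *HSPA1L* (−0.18 to 0.17), *HSPA8* (−0.11 to 0.054), *HSPA4* (−0.0076 to 0.049) and *HSPA14* (−0.0020 to 0.11). They did so for nelfinavir added to bortezomib in *HSPA1L* (−0.23 to 0.10) and *HSPA9* (−0.049 to 0.059), for ISRIB added in *HSPA6* (−0.43 to 0.14) and *HSPA14* (−0.16 to 0.074), for the ISRIB interaction in *HSPA14* (−0.20 to 0.034) and between the co-treatments in *HSPA8* (−0.35 to 0.022). Without the filter on low counts, ISRIB added to bortezomib changed 5 members instead of 3 (*HSPA8* and *HSPA4L* joined, both lower), and the ISRIB by bortezomib interaction changed 0 instead of 1. Leaving out each library in turn, members called were 8 to 8 for bortezomib, 4 to 5 for nelfinavir, 0 to 0 for ISRIB, 4 to 6 for nelfinavir and 2 to 4 for ISRIB added to bortezomib, 4 to 4 for the nelfinavir interaction, 0 to 1 for the ISRIB interaction and 6 to 6 for the co-treatments compared directly. With library totals alone, the summed levels were 1106 CPM (DMSO), 1064 (ISRIB), 801.7 (nelfinavir), 5525 (bortezomib), 9362 (bortezomib with nelfinavir) and 6051 (bortezomib with ISRIB). That scale moved the median of all genes by −0.498 (log2) for bortezomib, with 1490 genes higher and 6266 lower in place of 3498 and 3275, and members called higher fell from 8 to 6. The cause was not tested. DESeq2 gave the *HSPA6* interaction as called (log2 4.77, adjusted p = 0.009395), which edgeR could not estimate with 0 counts in DMSO and nelfinavir.

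Whether replicate numbers mark pairs could not be decided. Deviations correlated above 0.1 in 17 of 60 same-numbered pairs and 38 of 180 others, with median correlations of 0.0344 and −0.0184. In the ISRIB group the replicate numbers do not follow the numbers in the library labels, so the same number need not mean the same batch. With the number as a replicate block, members called were 8 for bortezomib, 5 for nelfinavir, 0 for ISRIB, 5 and 4 for nelfinavir and ISRIB added to bortezomib, 4 and 1 for the interactions and 6 for the direct comparison, the added call being *HSPA4L* with ISRIB. At totals of 5154533 to 6943164 counts, *HSPA2*, *HSPA1L* and, without bortezomib, *HSPA6* were limited by depth.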
